A study of Mus musculus with 6 samples.

Results

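The respiratory chain and the ATP synthase were followed through 75 nuclear genes in IgM+ B cells of mouse bone marrow. These genes were taken by name: 85 gene names in the table followed the usual symbols of the subunits (Nduf with a subunit letter and number, Sdha to Sdhd, Uqcr, Cox4 to Cox8 and Atp5), and the 75 with a mean of at least 1 RPKM over the 6 libraries were kept, of 10322 genes at that level and 22098 gene names in all. RPKM divides a gene's reads by its transcript length and by the size of the library, so that levels can be compared between genes of different length. Of the 75, 35 were assigned to complex I, 4 to II, 7 to III, 14 to IV and 12 to V. The other 3 (Atp5s, Atp5sl and Cox4nb) carry the name without being subunits. Cox7a2l, a relative of the Cox7a subunit, was counted with complex IV.

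The study sequenced poly(A)-enriched RNA of sorted IgM+ cells from C57BL/6 mice at 6 weeks of age. Wild-type mice, mice labelled Ikaros-ZnF1-/- (the ZnF1 mutant) and mice labelled Ikaros-ZnF4-/- (the ZnF4 mutant) gave 2 libraries each. Ikaros is a zinc finger transcription factor of lymphocytes, and each mutant lacks the finger named in its label. The labels do not say whether the libraries of a genotype came from different mice, so the p-values reflect only how far these samples spread.

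Complexes I to IV sit in the inner mitochondrial membrane, pass electrons from NADH and succinate to oxygen and, except for complex II, pump protons. Complex V, the ATP synthase, lets the protons flow back through its membrane part and makes ATP in its F1 head. The core subunits that carry electrons are partly encoded by mitochondrial DNA, which the name rule does not cover; several small nuclear subunits of complex IV exist as a broadly expressed form and a form of heart and skeletal muscle, testis or lung.

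The libraries expressed B cell markers. Ms4a1, the gene of CD20, lay between 835 and 1133 RPKM and Cd79a, a chain of the antigen receptor, between 578 and 861. Pax5 read 297 and 442 RPKM in wild type, 235 and 194 in ZnF1 mutants, and 252 and 293 in the ZnF4 mutant. The 5 T cell markers summed to between 13.8 and 21.2 RPKM, most of it Lck, and 5 NK cell markers to between 2.2 and 18.1. Markers of granulocytes and monocytes (8 genes) summed to 447 and 705 RPKM in wild type, 1394 and 7391 in ZnF1 mutants, and 1742 and 1843 in the ZnF4 mutant. In ZnF1 mutant replicate 2 that sum was above the sum of 6 B cell markers, 4481.5 RPKM. Elsewhere the B cell markers summed to between 4501.8 and 5397.6 RPKM. Erythroid markers (6 genes) were highest in ZnF1 mutant replicate 2, at 864 RPKM against 142 to 353 elsewhere, and plasma cell markers (5 genes) in wild type replicate 1, at 538 against 59.0 to 148. Ddx3y, a Y-linked gene, was listed at 0 except in replicate 2 of the ZnF1 mutant (20.4 RPKM) and replicate 2 of the ZnF4 mutant (16.6 RPKM). The part of these differences in the results below was not tested except where a fit with a term for them is given.

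The chain was well expressed in these B cells. The median of the 75 genes was 37.1 RPKM, against 12.2 for all tested genes, and single genes ranged from 1.08 to 279 RPKM. By complex, the median was 30.8 RPKM for complex I, 58.6 for complex II, 46.0 for complex III, 21.6 for complex IV and 50.4 for complex V. The same 5 genes held the top 5 places in all 6 libraries: Atp5a1 and Atp5b, which encode the alpha and beta subunits of the F1 head, Cox4i1, Atp5e and Atp5g3.

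Atp5a1 read 290.4 and 299.6 RPKM in wild type, 281 and 269.8 in ZnF1 mutants, and 239.8 and 292 in the ZnF4 mutant. Atp5b read 272 and 280.3, 279 and 288, and 226 and 262 RPKM in the same order. For both genes replicate 1 of the ZnF4 mutant was the lowest library. Atp5e, the small epsilon subunit of the head, read 182 and 122, 221 and 180.2, and 185 and 219 RPKM, with wild type replicate 2 the lowest library. Atp5g3 encodes the membrane ring subunit c, as do Atp5g1 and Atp5g2. Atp5g3 read 148 and 125, 154 and 162, and 137 and 136 RPKM and made up between 98.9% and 99.6% of the summed RPKM of these 3 genes. Atp5g1 (mean 0.783 RPKM) and Atp5g2 (mean 0.233 RPKM) did not reach the threshold of 1 RPKM.

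A very low RPKM was found for several subunits that have no second gene. Just above the threshold were Ndufs5 (1.08 RPKM), Ndufs3 (1.13), Cox7c (1.18) and Ndufb4 (1.20), and just below it was Uqcrb (0.917). Ndufs3 is a catalytic core subunit of complex I, and its mean was far under that of other core genes such as Ndufv2 (27.6 RPKM) and Ndufs8 (79.1 RPKM). Ndufs5 passed only through ZnF1 mutant replicate 2: it read 0.6 and 0.7 in wild type, 0.4 and 2.9 in ZnF1 mutants, and 0.5 and 1.4 RPKM in the ZnF4 mutant. Atp5l, a membrane subunit of complex V, was below the threshold at 0.467 RPKM.

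These low genes shared sequence with other genes. Each gene's transcript was compared in stretches of 36 bases with all other annotated mouse transcripts, pseudogenes included. The median share of such stretches found in another gene was 17.3% for the 21 names with a mean under 5 RPKM, 6.36% for the 41 between 5 and 50 RPKM, and 1.01% for the 23 with at least 50 RPKM. In 9 names more than 50% of the stretches were shared: Ndufa12, Ndufs3, Uqcrb, Cox7c, Atp5g1, Atp5g2, Atp5h, Atp5l and Atp5o, with means from 0.233 to 23.8 RPKM and a median of 1.13. These names were singled out after their values were seen. For Atp5l the share was 85.3%, with 20 other genes of which 18 were pseudogenes. For Atp5g2 it was 87.6%, while Atp5g3, at a mean of 144 RPKM, shared 0%. Across the 77 names without the tissue isoforms, Spearman's rho between level and share was -0.585 (-0.574 with stretches of 50 bases), a description across genes of the same libraries, which are not independent replicates. Over all 85 names it was -0.325, since most tissue isoforms were low and shared little. How reads with several matches were treated is not given in the sources used here, so levels of the genes with shared sequence are uncertain, and the part of that sequence in the low values was not tested.

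**Figure D1:**
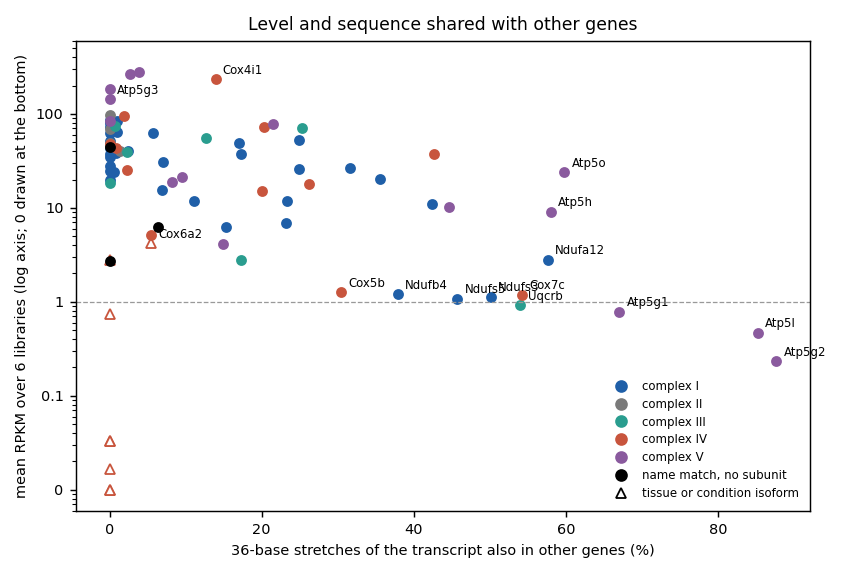
Each point is 1 of the 85 gene names; the x axis gives the percent of 36-base stretches of its transcript found in another gene and the y axis its mean RPKM over 6 libraries on a log axis, with the threshold of 1 RPKM dashed. Filled circles are coloured by complex, and open triangles are tissue or condition isoforms. Names with more than 50% shared lie between 0.233 and 23.8 RPKM.

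In the ZnF1 mutant limma called 0 of the 75 genes at an adjusted p under 0.05 (4 had an unadjusted p under 0.05), where 0.271% of all tested genes were called. In the ZnF4 mutant 1 of 75 was called, the lower Cox6a2 (1 had an unadjusted p under 0.05), where 3.2% of all tested genes were called. Between the mutants 0 of 75 were called (3 had an unadjusted p under 0.05), where 4.78% of all tested genes were called. The 2 wild-type libraries served as controls for both mutants, so those comparisons are not independent of each other.

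The 2 libraries of a mutant lay apart from both wild-type libraries for 27 genes in ZnF1 mutants (17 higher and 10 lower) and for 22 in the ZnF4 mutant (8 higher and 14 lower). These are 36% and 29.3% of the 75, where 41.5% and 50.4% of all tested genes did not overlap. Between the mutants 16 genes did not overlap (12 higher and 4 lower in ZnF1 mutants), which is 21.3% of the 75 where 46.8% of all tested genes did not. The median log2 fold change of the 75 genes was -0.01 in ZnF1 mutants and -0.04 in the ZnF4 mutant, against -0.0019 and -0.02 for all tested genes.

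For most of the genes a 2-fold difference lay outside the 95% interval. The interval was within 2-fold in either direction for 65 of 75 genes in ZnF1 mutants, 66 in the ZnF4 mutant and 65 between the mutants. These are 86.7%, 88% and 86.7% of the 75, where 85.9%, 82.1% and 80.6% of all tested genes were within 2-fold. The median standard error of the 75 genes was 0.17 on the log2 scale, as it was for all tested genes. The genes whose interval reached beyond 2-fold in the ZnF4 mutant were Cox6a2, Atp5k, Cox8a, Ndufa12, Ndufs5, Ndufs3, Ndufb4, Uqcr11 and Cox6b2. All but Cox8a, at 48.3 RPKM, had a mean under 5 RPKM.

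**Figure D2:**
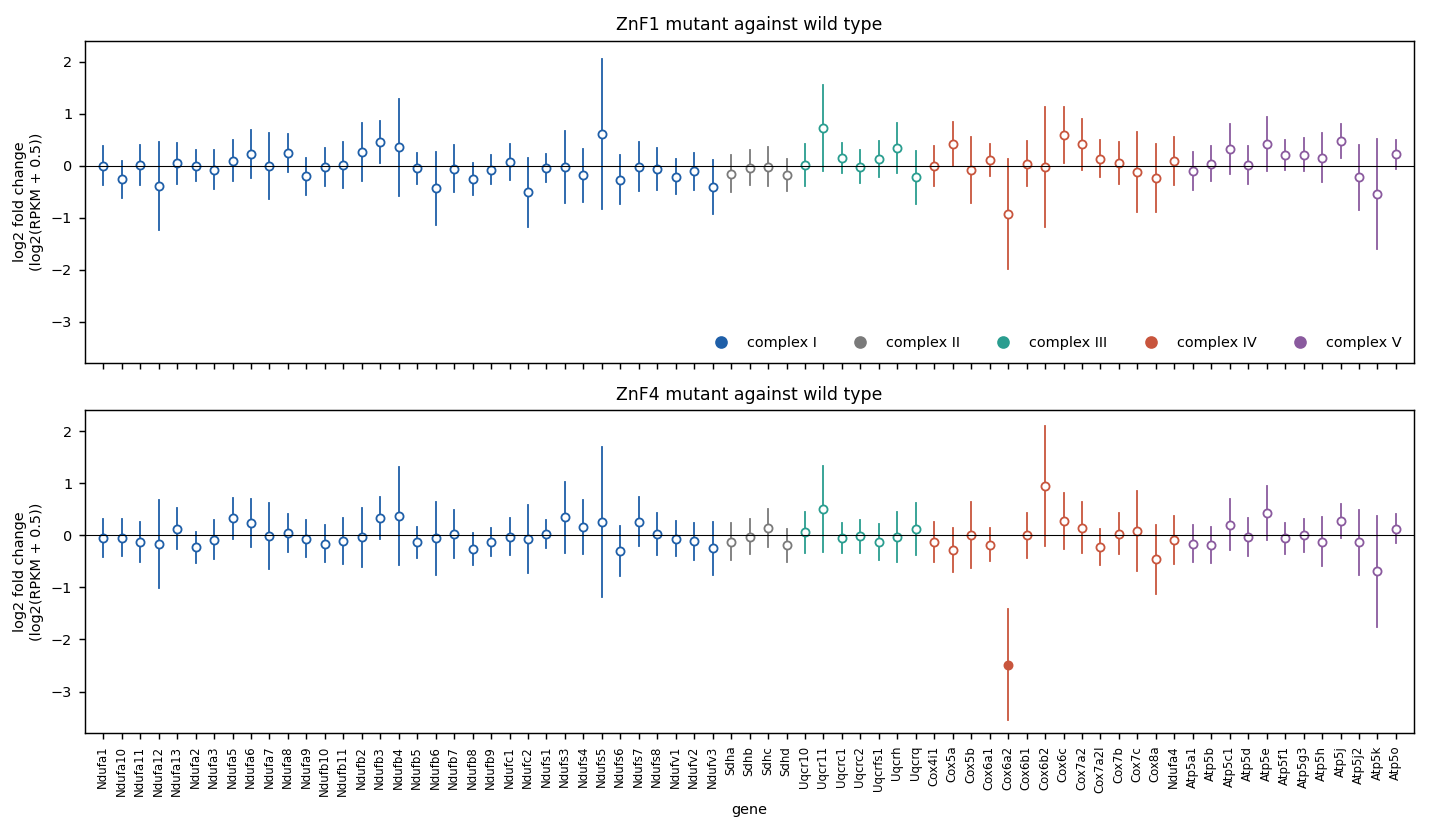
Log2 fold change of subunit genes on the log2(RPKM + 0.5) scale (y axis) by gene (x axis), in ZnF1 mutants (top) and the ZnF4 mutant (bottom) against wild type, coloured by complex. Lines are 95% intervals from the fit of 6 libraries and the filled point is the only gene called, Cox6a2 in the ZnF4 mutant at -2.49.

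In complex I, which takes electrons from NADH, 0 of 35 genes were called in any comparison. The median log2 fold change was -0.05 in ZnF1 mutants and -0.06 in the ZnF4 mutant.

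Ndufa3, an accessory subunit and the most abundant of complex I, read 89.4 and 88.7, 93.6 and 76.0, and 75.1 and 94.1 RPKM, with overlap in both mutants. Ndufs8, a core subunit that holds iron-sulphur clusters, read 85.1 and 74.2, 84.3 and 68.6, and 71.0 and 91.6 RPKM, and its groups overlapped too.

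Ndufc2, an accessory subunit of the membrane arm, read 24.2 and 30.8 RPKM in wild type, 26.3 and 13.7 in ZnF1 mutants, and 27.8 and 24.3 in the ZnF4 mutant. ZnF1 mutant replicate 1 lay between the wild-type libraries, and replicate 2 was lowest of all. Ndufb6, another accessory subunit of that arm, read 20.6 and 23.6, 23.4 and 11.1, and 20.8 and 21.6 RPKM, again with ZnF1 mutant replicate 2 lowest. Ndufb6 was chosen after its values were seen. With all 6 libraries the values in ZnF1 mutants were -0.51 for Ndufc2 (adjusted p = 0.550) and -0.44 for Ndufb6 (adjusted p = 0.635). Without ZnF1 mutant replicate 1 they were -0.97 and -0.96, a comparison that rests on the library with the highest granulocyte and erythroid marker sums.

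Complex II, which oxidises succinate and is also an enzyme of the citrate cycle, had 0 of 4 genes called in any comparison. Sdha, the flavoprotein, read 96.8 and 108 RPKM in wild type, 93.8 and 90.1 in ZnF1 mutants, and 83.4 and 107 in the ZnF4 mutant. Against wild type, both ZnF1 mutant libraries were lower (log2 fold change -0.15, adjusted p = 0.770). Sdhb, the iron-sulphur subunit, read 71.2 and 67.6, 74.2 and 61.2, and 62.9 and 73.5 RPKM. The membrane anchors Sdhc and Sdhd averaged 39.3 ± 3.75 and 53.0 ± 4.53 RPKM in wild type, 38.6 ± 0.919 and 46.7 ± 3.18 in ZnF1 mutants, and 43.8 ± 8.70 and 46.4 ± 4.74 in the ZnF4 mutant. For Sdhd both mutants lay under wild type (log2 fold changes of -0.18 and -0.19, neither called).

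Complex III, which passes electrons from ubiquinol to cytochrome c, had 0 of 7 genes called in any comparison, with medians of 0.13 in ZnF1 mutants and -0.02 in the ZnF4 mutant. Uqcrc1, a core protein, read 76.8 and 67.5, 81.2 and 79.0, and 66.6 and 72.6 RPKM, highest in ZnF1 mutants libraries. Uqcrc2, the other core protein, averaged 70.9 ± 6.29, 70.0 ± 7.21 and 69.8 ± 4.88 RPKM in wild type, ZnF1 mutant and ZnF4 mutant (SD, n = 2). Uqcrh, the hinge protein that binds cytochrome c1, read 58.3 and 44.2, 58.5 and 70.2, and 42.3 and 58.7 RPKM.
Uqcr11, a small subunit, was the lowest of the complex at 2.2 and 1.5 RPKM in wild type, 2.7 and 4.1 in ZnF1 mutants, and 1.9 and 4.1 in the ZnF4 mutant. It had the largest positive value of the 75 genes in ZnF1 mutants, 0.72 (SE 0.35, adjusted p = 0.494).

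Complex IV, cytochrome c oxidase, reduces oxygen, and its members had medians of 0.05 in ZnF1 mutants and -0.04 in the ZnF4 mutant. Cox5a, a subunit with a single gene, read 37.5 and 33.5 RPKM in wild type, 39.7 and 57.1 in ZnF1 mutants, and 28.1 and 30.2 in the ZnF4 mutant. The ZnF1 mutant libraries were above and the ZnF4 mutant libraries below both wild-type libraries. Cox5a was 0.70 higher in ZnF1 than in ZnF4 mutants on the log2 scale (SE 0.18, adjusted p = 0.0770), which missed the threshold. Without ZnF1 mutant replicate 1 the difference was 0.96.

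Cox6c, a small subunit with a single gene, read 17.3 and 11.9, 20.8 and 22.8, and 14.4 and 21.2 RPKM. The ZnF1 mutant libraries were above wild type (0.58, SE 0.23, adjusted p = 0.378). Cox7a2l, a relative of the Cox7a subunit, read 14.9 and 15.9, 16.3 and 17.6, and 11.6 and 14.8 RPKM. Its genotypes had the same order as for Cox5a (ZnF1 mutant against ZnF4 mutant 0.36, adjusted p = 0.238). Ndufa4, first described in complex I and now counted in complex IV, averaged 43.1 ± 1.48, 46.4 ± 9.19 and 41.1 ± 9.90 RPKM in wild type, ZnF1 mutant and ZnF4 mutant (SD, n = 2). Its relative Ndufa4l2 was listed at 0 in 5 libraries and at 0.1 RPKM in replicate 1 of the ZnF4 mutant.

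Complex V had 0 of 12 genes called in any comparison, with medians of 0.18 in ZnF1 mutants and -0.04 in the ZnF4 mutant. Atp5j, the coupling factor F6 of the peripheral stalk, read 66.5 and 61.5 RPKM in wild type, 85.9 and 92.3 in ZnF1 mutants, and 69.5 and 86.5 in the ZnF4 mutant. Both mutants lay above wild type without passing the test (0.47, adjusted p = 0.246, and 0.28, adjusted p = 0.374). Atp5j was chosen after its values were seen. Atp5k, the membrane subunit e, read 2.9 and 8.8, 3.4 and 3.3, and 2.2 and 4.0 RPKM, so that 1 wild-type library was far above the other 5.

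The 2 libraries of a genotype lay a median log2 distance of 0.17 apart in wild type, 0.22 in ZnF1 and 0.31 in ZnF4 mutants. For all tested genes these medians were 0.15, 0.19 and 0.18. The genes more than 2-fold apart numbered 2, 4 and 0, or 2.67%, 5.33% and 0% of the 75. Of all tested genes, 1.085%, 4.46% and 0.698% were that far apart. Replicate 2 of the ZnF4 mutant was higher than replicate 1 for 60 of the 75 genes, by a median of 0.28 on the log2 scale. Over all tested genes the same difference was 0.07, with 6021 of 10322 higher. The summed RPKM of the 75 genes was 3605 and 3502 in wild type, 3720 and 3529 in ZnF1 mutants, and 3138 and 3786 in the ZnF4 mutant. The ZnF4 mutant libraries were thus the lowest and the highest of the 6. The sum for complex IV was 489.9 and 630.0 RPKM in the ZnF4 mutant, against 612 and 613 in wild type. These 2 libraries also differed in Ddx3y, and the part of that difference was not tested.

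**Figure D3:**
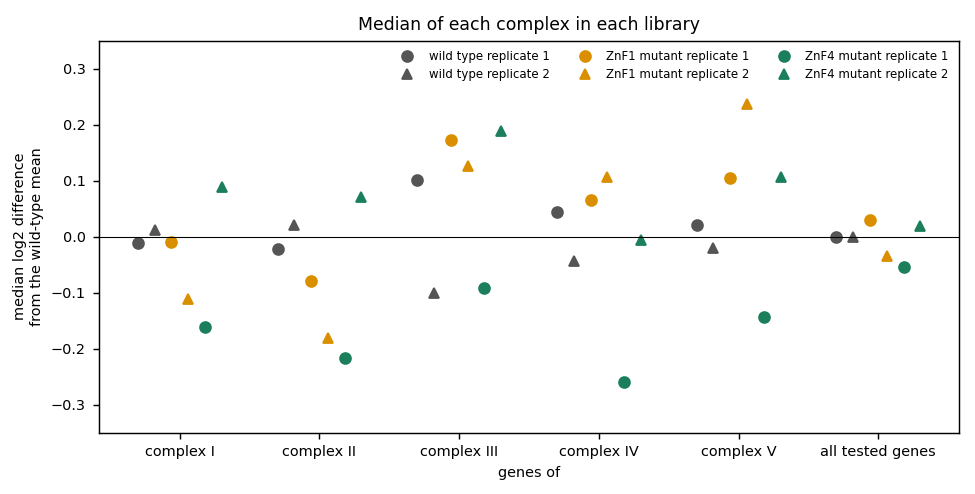
For each complex and for all tested genes (x axis), the median over genes of the log2 difference from the wild-type mean (y axis), 1 point per library, circles for replicate 1 and triangles for replicate 2. In the ZnF4 mutant, replicate 1 lies under replicate 2 in every complex, from -0.26 to -0.01 in complex IV.

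The muscle and testis forms of complex IV were minor forms in these B cells. Cox4i1 read 242 and 237 RPKM in wild type, 248 and 228 in ZnF1 mutants, and 194 and 247 in the ZnF4 mutant, while Cox4i2, its lung form, was listed at 0.1 RPKM in wild type and at 0 in every mutant library. Cox8a read 41.9 and 72.3, 39.7 and 54.9, and 34.4 and 46.3 RPKM. The heart and muscle form Cox8b was likewise at 0.1 RPKM in wild type and 0 in the mutants, and Cox8c and Cox7b2 at 0 in all 6. Cox7b read 5.2 and 4.8, 4.9 and 5.5, and 4.6 and 5.7 RPKM. Cox7a2 read 23.2 and 20.3, 24.4 and 34.4, and 20.6 and 28.2 RPKM, and its heart and muscle form Cox7a1 lay between 0.3 and 1.1 RPKM. Cox7a1 was between 0.865% and 3.75% of the summed RPKM of this pair.

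Cox6a2 was the only one of the 75 genes called in any comparison. It encodes the heart and skeletal muscle form of subunit VIa, which binds adenine nucleotides at the oxidase. Cox6a2 read 3.9 and 12.5 RPKM in wild type, 4.0 and 3.0 in ZnF1 mutants, and 0.9 and 0.8 in the ZnF4 mutant. The ZnF4 mutant libraries were below the other 4, and wild type replicate 2 stood above all others. Cox6a2 fell by 2.49 on the log2 scale in the ZnF4 mutant (SE 0.45, 95% interval -3.55 to -1.42, adjusted p = 0.0353). In the ZnF1 mutant its value was -0.93 (SE 0.45, adjusted p = 0.494), with overlap of the libraries. Leaving out wild type replicate 2 gave -0.15, and leaving out its replicate 1 gave -1.71. The difference between the mutants was 1.56 (SE 0.45, adjusted p = 0.110), which missed the threshold. It was called in the fit of the mutants alone (adjusted p = 0.0387) and without wild type replicate 1 (adjusted p = 0.0325) or 2 (adjusted p = 0.0369).

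The call for Cox6a2 ended with a term for sex (-2.37, adjusted p = 0.117) and with no filter on low values (-2.49, adjusted p = 0.122). It also ended with the S100a8 level, a granulocyte gene, as a term (-2.58, adjusted p = 0.0666). Leaving out wild type replicate 2 (-1.71) or ZnF4 mutant replicate 1 (-2.54) or 2 (-2.43) ended it too. Those fits left a group with 1 library, and few or none of all tested genes were called in them. In whole-population RNA, fewer cells with the transcript and less RNA per cell cannot be told apart.

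The broad form Cox6a1 read 78.7 and 68.3 RPKM in wild type, 82.8 and 75.5 in ZnF1 mutants, and 61.7 and 68.2 in the ZnF4 mutant, with a log2 fold change of -0.18 in the ZnF4 mutant (adjusted p = 0.540). The ZnF4 mutant libraries were just under both wild-type libraries. Cox6a2 made up 4.72% and 15.5% of the summed RPKM of both forms in wild type, 4.61% and 3.82% in ZnF1 mutants, and 1.44% and 1.16% in the ZnF4 mutant. The sum of the pair was carried by Cox6a1 in every library.

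The levels of other cell types were set beside Cox6a2, which is a gene of striated muscle and has also been described in plasmacytoid dendritic cells. Of 10 muscle markers, 6 (Ckmt2, Mb, Actn2, Myh7, Myh6 and Des) were listed at 0 in every library. The list summed to 3.5 and 6.0 RPKM in wild type, 2.2 and 3.4 in ZnF1 mutants, and 8.9 and 10.3 in the ZnF4 mutant, nearly all of it Tnnt3. Of 10 markers of plasmacytoid dendritic cells, 0 were at 0 in every library. They summed to 316 and 291, 371 and 324, and 432 and 446 RPKM, most of it Irf8, which B cells express too. By gene, 2 of the 8 tested markers were called higher in the ZnF4 mutant than in wild type: Cd300c (3.05, adjusted p = 0.00762) and Cd209a (2.18, adjusted p = 0.00832). None was called against wild type in ZnF1 mutants. Between the mutants, Bst2 (1.29, adjusted p = 0.0112) and Cd209d (3.24, adjusted p = 0.00511) were called higher in ZnF1 mutants. Cd300c (-1.77, adjusted p = 0.0343) and Cd209a (-1.20, adjusted p = 0.0483) were called lower. In the ZnF4 mutant against wild type Bst2 had -0.86 (adjusted p = 0.0551). Of all tested genes, 3.2% were called in the ZnF4 mutant against wild type and 4.78% between the mutants. Siglech, a defining receptor of these cells, read 1.1 and 4.0, 5.3 and 7.2, and 2.3 and 1.9 RPKM, with values of 1.32 in ZnF1 mutants and -0.05 in the ZnF4 mutant, neither called. Members of the list thus differed in direction. The part of plasmacytoid dendritic cells in the Cox6a2 result was not tested.

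The 5 tested genes with the closest pattern to Cox6a2 over the 6 libraries were Fam83f, Pqbp1, Med15, Arl8a and Abcf1, with Pearson's r of 0.997, 0.994, 0.990, 0.989 and 0.986 on the log2 scale. These are the highest values among 10322 genes and describe the likeness only. Pqbp1, which encodes a polyglutamine-binding protein, read 104 and 140.1, 108 and 94.3, and 69.3 and 66.1 RPKM. Of the 4 genes on each side of Cox6a2 in the gene order of assembly GRCm38.p6, those that were tested were not called in the ZnF4 mutant. Armc5 read 10.1 and 9.8, 10.6 and 9.6, and 10.6 and 10.3 RPKM (0.07 in the ZnF4 mutant, adjusted p = 0.833), 9130023H24Rik had -0.05 (adjusted p = 0.910), Itgam 0.24 (adjusted p = 0.894) and Slc5a2 0.32 (adjusted p = 0.425). Itgax, which was too low to be tested, read 0.6 and 0.6 in wild type, 0.3 and 1.0 in ZnF1 mutants, and was listed at 0 in both ZnF4 mutant libraries.

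Cox6b2, the testis form of subunit VIb, read 2.1 and 1.7 RPKM in wild type, 0.8 and 3.8 in ZnF1 mutants, and 4.4 and 3.9 in the ZnF4 mutant. The ZnF4 mutant libraries were the highest, and those of the ZnF1 mutant lay on both sides of wild type. In the ZnF4 mutant the value was 0.96 (SE 0.49, adjusted p = 0.373). It was called when the ZnF1 mutant libraries were left out of the fit (adjusted p = 0.0309), where 594 of 10322 tested genes were called. With a term for sex the value was 0.56 (adjusted p = 0.667). With the S100a8 level as a term it changed sign, to -0.22 (adjusted p = 0.890). Against the ZnF4 mutant, the ZnF1 mutant had -0.97 (adjusted p = 0.330). This was -1.84 without ZnF1 mutant replicate 2 and -0.11 without its replicate 1. It was called with the S100a8 term at -1.59 (adjusted p = 0.0134), where 687 of 10322 tested genes were called. The broad form Cox6b1 read 99.2 and 89.9, 101.5 and 92.9, and 78.2 and 114 RPKM, and Cox6b2 was between 0.782% and 5.33% of the pair.

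**Figure D4:**
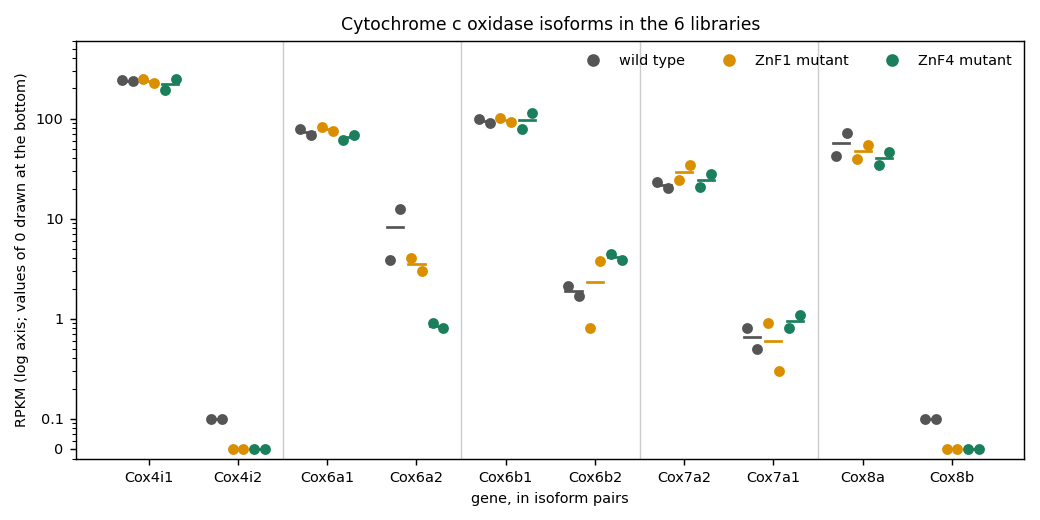
RPKM on a log axis (y axis) of complex IV isoform pairs (x axis), 1 point per library coloured by genotype with a line at the mean of 2 libraries; values of 0 are drawn at the bottom. Cox6a2 lies at 0.8 and 0.9 RPKM in the ZnF4 mutant and between 3.0 and 12.5 in the other 4 libraries, while Cox6a1 lies between 61.7 and 82.8 in all 6.

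Promoters of Cox6a1, a broad isoform, and of Cox6b2, a tissue isoform of another subunit, are shown as examples and not as a matched pair. Of the 75 genes, 63 had a promoter in RefSeq's table of GRCm38.p6 (250 bases before and 50 after the start), and Cox4i1 and Cox6a2 were among the 12 without one. The printed stretches are the 250 bases before the start, on the minus strand at chr5:115348959-115349208 for Cox6a1 and chr7:4753095-4753344 for Cox6b2. Capitals mark CCGGAAG, a core of GABPA and other ETS factors, and GCGCATGC, the site of NRF1, on either strand.
Cox6a1: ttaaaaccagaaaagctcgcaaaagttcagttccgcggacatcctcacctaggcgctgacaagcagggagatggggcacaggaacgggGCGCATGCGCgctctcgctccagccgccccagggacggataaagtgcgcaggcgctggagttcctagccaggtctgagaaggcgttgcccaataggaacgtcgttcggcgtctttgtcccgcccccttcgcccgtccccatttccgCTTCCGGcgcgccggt
Cox6b2: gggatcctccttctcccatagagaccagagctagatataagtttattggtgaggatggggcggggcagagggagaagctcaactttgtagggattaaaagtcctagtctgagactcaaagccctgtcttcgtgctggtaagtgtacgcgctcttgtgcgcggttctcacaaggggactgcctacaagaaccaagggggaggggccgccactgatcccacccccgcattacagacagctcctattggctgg

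The Cox6a1 stretch held 1 match to CCGGAAG and 2 overlapping matches to GCGCATGC, 1 on each strand, and the Cox6b2 stretch held none of either. Among other broad forms, Cox6b1 held 1 match to CCGGAAG in the same 250 bases. Cox7a2, Cox7b, Cox8a and Ndufa4 held none of either, so the printed contrast does not separate broad from tissue forms. Over the 69 promoters of the 63 genes, CCGGAAG was found in 21.7%, against 19.6% of the promoters of tested genes and 8.86% of all promoters in the table. GCGCATGC was found in 11.6% (8 promoters), against 5.54% and 2.71%, and ATGGCGGC, the site of YY1, in 13.0% (9 promoters), against 5.41% and 2.24%. TGGGAA, the core bound by Ikaros, was found in 21.7%, against 22.8% and 25.6%. All were searched on both strands of the same 300 bases. A match describes the letters and not binding.

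The lists below were written from textbook knowledge, and a gene counts as called by the same fit and threshold. Of 8 tested assembly factors of complex I, 0 were called in any comparison; those with the smallest p were Foxred1 and Ecsit (ZnF1 mutant against ZnF4 mutant -0.37 for Foxred1, adjusted p = 0.149, and ZnF4 mutant against wild type -0.33 for Ecsit, adjusted p = 0.227). Of 20 tested assembly factors of complexes II to V, 1 was called. Sdhaf2, which helps attach the flavin to Sdha, read 33.6 and 32.8 RPKM in wild type, 33.6 and 34.3 in ZnF1 mutants, and 23.7 and 23.4 in the ZnF4 mutant. The ZnF4 mutant libraries were below the other 4, which lay close together. Sdhaf2 was higher in ZnF1 than in ZnF4 mutants by 0.52 (SE 0.11, adjusted p = 0.0403), and its value in the ZnF4 mutant against wild type was -0.49 (adjusted p = 0.0659).

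Other components of the chain outside the name rule, such as cytochrome c1 and the electron-transfer flavoproteins, had 0 of 9 tested genes called, with the smallest p for Higd2a (-0.31 in the ZnF4 mutant, adjusted p = 0.270) and Ndufab1 (0.61 in ZnF1 mutants, adjusted p = 0.528). Carriers and pores of the mitochondrial membranes had 0 of 5 called. Vdac1, the main pore of the outer membrane, read 22.0 and 24.1, 23.3 and 23.4, and 17.5 and 17.8 RPKM, lowest in the ZnF4 mutant (-0.37, adjusted p = 0.151). Slc25a3, the phosphate carrier that feeds the ATP synthase, differed by 0.32 between the mutants (adjusted p = 0.207).

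Regulators of mitochondrial transcription and biogenesis had 0 of 10 tested genes called; Ppargc1b, a coactivator, had 0.65 in the ZnF4 mutant (adjusted p = 0.222), and Pprc1, a related coactivator, had 0.37 in ZnF1 mutants (adjusted p = 0.314). In the citrate cycle and pyruvate dehydrogenase 0 of 16 tested genes were called. Idh2, the mitochondrial NADP-dependent isocitrate dehydrogenase, came nearest: it read 26.2 and 31.0 RPKM in wild type, 12.4 and 14.2 in ZnF1 mutants, and 17.2 and 20.6 in the ZnF4 mutant. Both mutants lay wholly below wild type (-1.07, SE 0.15, adjusted p = 0.0530, and -0.59, SE 0.15, adjusted p = 0.0984). Ogdh, a subunit of the 2-oxoglutarate dehydrogenase complex, had -0.49 in the ZnF4 mutant (adjusted p = 0.0869).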

How the data were processed

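The authors deposited RPKM per RefSeq transcript, rounded to steps of 0.1, for 6 libraries, together with the length of each transcript in bases. Reads were mapped to mm9, and TopHat and bedtools were used, per the submitters' processing notes; versions, read length, strand and the treatment of reads with several matches are not given in the sources used here. The depth of the libraries is unknown. The transcript with the highest mean stood for each gene, and genes with a mean of at least 1 RPKM were tested (10322). Limma 3.58.1 in R 4.3.3 (lmFit, eBayes with trend) was fitted to log2(RPKM + 0.5) of all 6 libraries with 1 coefficient per genotype and 3 residual degrees of freedom. The test was two-sided with Benjamini-Hochberg adjustment over all tested genes, called at an adjusted p under 0.05. Fold changes on this scale understate those of low genes. The fit was checked on simulated data.

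Genes named were every called member, the tissue isoform families, the 3 highest and the lowest member of each complex, the 3 largest values in each direction in each mutant, those next to 1 RPKM, and of each accompanying list up to 4 called genes or the 2 with the smallest p. The members and lists were chosen with earlier results of these data known. Shared sequence was counted against GENCODE transcripts. No column of values was left unused. A gene that the rule took, and the result that needs it, are not reported here.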

Additional observations from a re-analysis of the deposited data

Results flagged for a closer look

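In 2 genes counted with complex IV the ZnF1 mutant libraries were all above and the ZnF4 mutant libraries all below the wild-type libraries. How many of all tested genes had this order was not counted, so the 2 genes are a description only. Against wild type, 41.5% of all tested genes did not overlap in ZnF1 mutants and 50.4% in the ZnF4 mutant. The difference between the mutants, tested directly, was 0.70 on the log2 scale for Cox5a (adjusted p = 0.0770) and 0.358 for Cox7a2l (adjusted p = 0.238); neither passed the threshold.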

How the results depend on the processing

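The 3 counts of called genes and the 3 medians were recomputed under 17 alternatives, of which the term for the S100a8 level was chosen after seeing the data. In the ZnF4 mutant the count of called genes was 1. It was 0 with no filter on low values, with a filter at a mean of 5 RPKM (64 genes, Cox6a2 not tested), with a term for sex and with the S100a8 term. It was 2 in the fit of the 2 compared genotypes, where 594 of 10322 tested genes were called. Leaving out 1 library gave medians from -0.14 to 0.0827, and the call of Cox6a2 ended without wild type replicate 2 or either ZnF4 mutant library. In the ZnF1 mutant the count was 0 under every alternative that left out no single library, but not without ZnF1 mutant replicate 1. There the values were -0.97 for Ndufc2 and -0.96 for Ndufb6, with 1 library left in that group. Leaving out 1 library gave medians from -0.0214 to 0.0521, and the S100a8 term a median of 0.119. Between the mutants the count was 1 in the fit of the 2 compared genotypes and with the S100a8 term, and leaving out 1 library gave counts from 0 to 4 and medians from -0.119 to 0.167. Without ZnF1 mutant replicate 1 the values between the mutants were 0.96 for Cox5a, -0.90 for Ndufb6, -0.90 for Ndufc2 and -0.70 for Ndufs4. These genes were picked after the values of that fit were seen. Where a library was left out, the lone sample of its group was assumed to vary like the others. For the other cases the cause was not tested.

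Deviations of libraries with the same replicate number had correlations of 0.280 (wild type and ZnF1 mutant), -0.033 (wild type and ZnF4 mutant) and 0.208 (both mutants). These values do not settle whether the numbers pair the libraries. The fit with the replicate block gave 0, 1 and 0 called genes and kept Cox6a2 at an adjusted p of 0.0419. Over all genes the count of calls in the ZnF4 mutant lay between 0 and 594 in these fits, against 330. For the 31 genes named by the rule, 0 called values changed sign. RPKM in steps of 0.1 without read counts limits what can be said of genes near 1 RPKM.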
